A study of Arabidopsis thaliana with 15 samples.

Results

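The EDS1 family and its helper NLR genes are the shared signalling hub behind many plant immune receptors, and they were followed as 10 loci of the 32833 genes in the deposited count table. They were chosen by locus identifier: EDS1 (AT3G48090), EDS1B (AT3G48080), PAD4 (AT3G52430), SAG101 (AT5G14930), ADR1 (AT1G33560), ADR1-L1 (AT4G33300), ADR1-L2 (AT5G04720), ADR1-L3 (AT5G47280), NRG1.1 (AT5G66900) and NRG1.2 (AT5G66910). This choice, and that of the gene lists below, was made with earlier results of these data known. Counts set beside the shares over all genes are therefore a description. The count table lists EDS1B, NRG1.1 and NRG1.2 by locus only, and the names used for them are those of the gene set. RNA was sequenced from untreated whole Arabidopsis thaliana seedlings of 1 week, grown on medium with 1% sucrose. The 5 genotypes were the single mutants gyf1 and gyf2, the double mutants gyf1 gyf2-1 and gyf1 gyf2-2, and wild type (WT, accession Col-0), with 3 libraries each (n = 3 throughout). The labels name neither the mutated loci nor the alleles. Whether gyf2-1 and gyf2-2 are alleles or lines is not stated, nor which of them the gyf2 single mutant carries. No label describes the 3 libraries of a genotype as separate cultures, and their spread, which the p-values rest on, may be technical. The design text of the series speaks of duplicates, but 3 libraries per genotype are present and all were used.

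EDS1, PAD4 and SAG101 are lipase-like proteins without a known lipase role in immunity. Receptors with a TIR domain make small nucleotide signals after they detect a pathogen effector, and EDS1 bound to PAD4 or to SAG101 receives these signals. EDS1 with PAD4 then engages helper NLRs of the ADR1 class, which act mainly in basal resistance and salicylic acid signalling, and EDS1 with SAG101 engages helpers of the NRG1 class, which act mainly in cell death.

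Libraries held 16567801 to 24681140 counts, and pairs of libraries of a genotype differed by more than counting noise (chi-square per gene 3.10 to 9.72), so all 15 were kept as separate samples. WT replicate 1 differed most from the others of its genotype, with a chi-square per gene of 9.72 and 9.70 in its pairs, against 4.16 for the other WT pair. Replicate 1 of gyf1 gyf2-1 (6.62 and 7.69, against 3.10) and replicate 2 of gyf1 gyf2-2 (7.53 and 6.99, against 3.51) also stood apart. Pairs ran from 3.99 to 5.79 in gyf1 and from 4.19 to 8.32 in gyf2. None of the calls against WT given below for the EDS1 family and helper genes was lost when any library was left out. As the mutated loci are not given, no loss of a transcript could be used to check the genotypes. The tissue label was compared with marker genes. The leaf markers RBCS1A, LHCB1.1, LHCA1 and RCA summed to 27235.6 to 34733.6 CPM (counts brought to 1 common library size) over the 15 libraries, and 3 seed and flower genes summed to at most 0.373 CPM. Of the 3 marker lists with measured genes, none of the 13 genes was at 0 in all libraries.

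In both double mutants, 8 of the 9 measured genes rose against WT, and none was called lower. The ADR1-class helpers rose most, about 1.77-fold to 2.14-fold, the EDS1 family genes and NRG1.2 rose 1.25-fold to 1.69-fold, and NRG1.1 did not pass the test. In gyf2, 3 genes rose, which were ADR1, ADR1-L1 and ADR1-L2. In gyf1, 0 genes passed the edgeR quasi-likelihood test. DESeq2 called 2, ADR1 and ADR1-L2, where it called 175 of all 20721 genes. In the edgeR fit 2 had an unadjusted p below 0.05, and the share of all genes below it was not taken. The remaining locus, ADR1-L3, had 0 counts in every library and could not be tested. The libraries did not overlap with WT for 3 of the 9 genes in gyf2, where this held for 18.0% of all genes, and for 8 of 9 in each double mutant, where it held for 37.7% in gyf1 gyf2-1 and 38.8% in gyf1 gyf2-2. Over all 20721 genes tested, the share called was 0.521% in gyf1 and 2.50% in gyf2 seedlings, with 25.9% in gyf1 gyf2-1 and 27.7% in gyf1 gyf2-2. Called as higher were 0.405%, 1.99%, 14.2% and 15.1% of genes in the same order of genotypes. The median log2 change of the 9 genes was 0.04 in gyf1 and 0.09 in gyf2 seedlings, with 0.60 in gyf1 gyf2-1 and 0.70 in gyf1 gyf2-2, against −0.0038, −0.0091, −0.014 and −0.0091 over all genes tested.

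**Figure D1:**
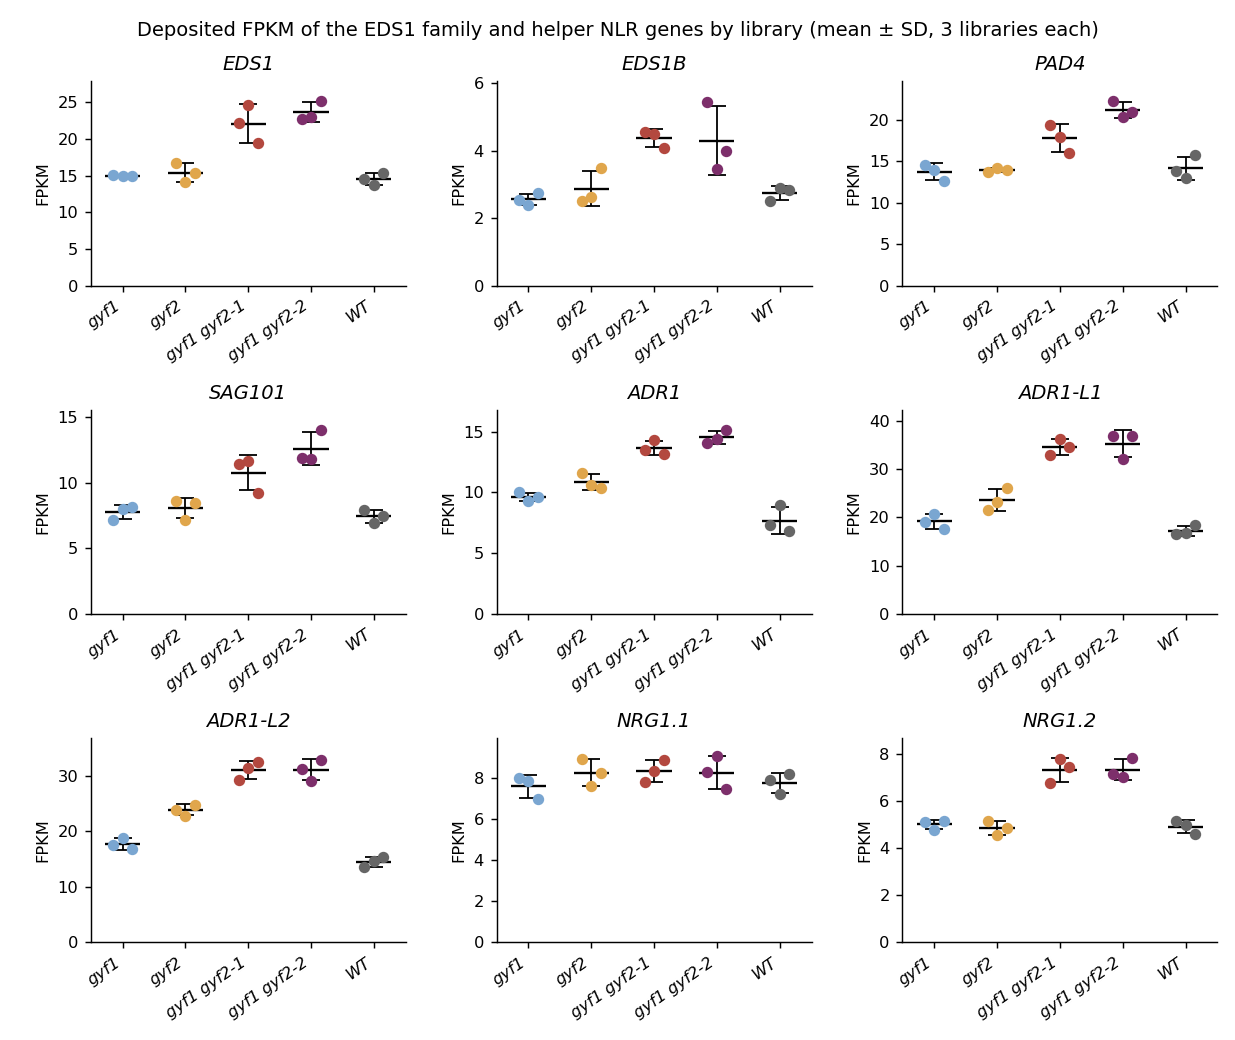
Deposited FPKM (vertical axis, from 0) of the 9 detected genes in each library, in 5 genotypes (horizontal axis). Points are libraries, the long bar is the mean and the whiskers are 1 SD of 3 libraries. ADR1-L2 ran from 29.1 to 32.9 FPKM in the double mutants and from 13.5 to 15.3 in WT, while NRG1.1 overlapped in all genotypes.

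Some tissue markers differed from WT in the double mutants, and PYK10 also in gyf1. The root list (PYK10, SHR, SCR, RHD6 and CASP1) summed to 2969.3 to 3808.2 CPM in gyf1 and 2713.1 to 3079.1 in gyf2 seedlings, then 3584.4 to 3686.8 in gyf1 gyf2-1 and 3588.8 to 3805.5 in gyf1 gyf2-2 seedlings, and 2359.4 to 2787.8 in WT, most of it from PYK10. Of these 5 root genes, 1 was called higher in gyf1, 0 in gyf2 and 1 in each double mutant, and in each case it was PYK10. The shoot apex and stomatal lineage list (STM, SPCH, TMM and FIL) summed to 57.5 to 61.5 CPM in gyf1 and 55.4 to 64.2 in gyf2 seedlings, then 52.0 to 56.0 in gyf1 gyf2-1 and 46.9 to 51.6 in gyf1 gyf2-2 seedlings, and 63.7 to 65.0 in WT. SPCH and TMM were called lower in both double mutants, STM was called higher in gyf1 gyf2-1, and of the leaf list RBCS1A was called higher in both. The part of these markers in the rises below was not tested. In whole seedlings, more cells that express a gene and more RNA of that gene per cell cannot be told apart.

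The genes were expressed at moderate levels in WT, as FPKM (fragments per length of transcript and library size, which can be compared between genes). ADR1-L1 was highest in WT at 17.2 ± 0.983 FPKM (mean ± SD), and its libraries lay above those of the next gene. EDS1 at 14.5 ± 0.819, ADR1-L2 at 14.5 ± 0.926 and PAD4 at 14.1 ± 1.42 came next, with overlapping libraries. NRG1.1 at 7.73 ± 0.494, ADR1 at 7.68 ± 1.11 and SAG101 at 7.42 ± 0.507 FPKM also overlapped in WT. NRG1.2 at 4.92 ± 0.277 and EDS1B at 2.75 ± 0.217 lay lower, each apart from its neighbours in this order. The order differed by genotype. ADR1-L2 and ADR1-L1 stood first in gyf2, at 23.8 ± 1.02 and 23.6 ± 2.24 FPKM with overlapping libraries, clear of EDS1 at 15.5 ± 1.25. In all 4 mutants ADR1 lay above SAG101 and NRG1.1 without overlap, whereas in WT the libraries of these 3 genes overlapped.

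EDS1, the partner common to both signalling dimers, rose in both double mutants and was called in neither single mutant. It lies at chr3:17755329-17758147 on the minus strand of TAIR10. Its level was 15.1, 15.0 and 14.9 FPKM in gyf1 and 16.7, 14.2 and 15.4 FPKM in gyf2. It was 22.2, 24.7 and 19.4 FPKM in gyf1 gyf2-1, 22.8, 23.0 and 25.2 in gyf1 gyf2-2, and 14.5, 13.7 and 15.4 in WT. Every double mutant library lay above every library of the other genotypes, and the single mutants overlapped WT. The log2 fold change was 0.60 in gyf1 gyf2-1 (SE 0.08, adjusted p = 2.74e-06) and 0.70 for gyf1 gyf2-2 (SE 0.08, adjusted p = 1.28e-07) by edgeR's quasi-likelihood test with Benjamini-Hochberg adjustment. In gyf1 it was 0.04 (adjusted p = 0.903), and in gyf2 0.09 (adjusted p = 0.689).

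EDS1B is the tandem copy of EDS1 and lies at chr3:17752463-17755190 on the same strand, with 138 bases between the annotated genes. Of 1859 aligned coding bases, 1561 were identical. The stretch of 100 coding bases with the fewest differences is shown for both copies, to let the closeness of the copies be seen (RefSeq, TAIR10.1, 5′ to 3′ on the minus strand, EDS1 at chr3:17756149-17756248 and EDS1B at chr3:17753703-17753802). Capitals mark the 5 bases that differ.
EDS1: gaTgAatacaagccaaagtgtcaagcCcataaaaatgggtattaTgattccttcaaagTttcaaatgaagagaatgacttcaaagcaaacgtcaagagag
EDS1B: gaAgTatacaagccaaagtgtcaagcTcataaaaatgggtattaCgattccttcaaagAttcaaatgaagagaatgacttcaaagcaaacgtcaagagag
No stretch of 150 bases of one annotated transcript was found in that of the other, so a read of that length over either copy meets at least 1 difference. Of the 2427 windows of this length in EDS1B, 354 (14.6%) lie antisense to the neighbouring gene AT3G48070. The libraries were stranded per the labels, but no source used here gives the strand setting of the counting. AT3G48070 itself had 25.2, 25.5, 25.2 and 26.5 CPM in gyf1, gyf2, gyf1 gyf2-1 and gyf1 gyf2-2 and 27.8 CPM in WT (group means), and it was called in no mutant.

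EDS1B rose along with EDS1 in the double mutants, at a much lower level. It had 2.53, 2.40 and 2.74 FPKM in gyf1 and 2.51, 2.64 and 3.48 in gyf2 seedlings, then 4.56, 4.51 and 4.08 in gyf1 gyf2-1 beside 5.45, 3.47 and 3.99 in gyf1 gyf2-2 seedlings, and 2.50, 2.90 and 2.85 in WT. The double mutant libraries all lay above WT, but the highest gyf2 library, at 3.48 FPKM, reached the lowest double mutant library, at 3.47. The log2 fold change was 0.67 in gyf1 gyf2-1 (SE 0.15, adjusted p = 0.0016), while gyf1 gyf2-2 had 0.64 (SE 0.15, adjusted p = 0.00186). Without gyf1 gyf2-2 replicate 1, the library with the highest EDS1B level, the change in that line was 0.44 (adjusted p = 0.0416). EDS1B contributed 14.6% of the FPKM of both copies in gyf1 and 15.7% in gyf2 seedlings, then 16.6% in gyf1 gyf2-1 and 15.4% in gyf1 gyf2-2 seedlings, and 15.9% in WT, with an SD of 0.87 to 3.43 percentage points. The ranges of the double mutants overlapped that of WT.

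PAD4, the partner of EDS1 in basal resistance, showed the smallest called rise in gyf1 gyf2-1. It lies at chr3:19431095-19434450 on the plus strand. The levels were 14.6, 14.0 and 12.6 FPKM in gyf1 and 13.7, 14.2 and 14.0 in gyf2 seedlings, then 19.4, 17.9 and 16.0 in gyf1 gyf2-1 beside 22.3, 20.4 and 21.0 in gyf1 gyf2-2 seedlings, and 13.8, 13.0 and 15.7 in WT. The lowest gyf1 gyf2-1 library, at 16.0 FPKM, was just above the highest WT library, at 15.7, and the gyf1 gyf2-2 libraries were well clear of both. PAD4 rose by 0.33 on the log2 scale (SE 0.08, adjusted p = 0.00496) in gyf1 gyf2-1 and by 0.58 in gyf1 gyf2-2 (SE 0.08, adjusted p = 3.67e-06). Its change was −0.05 in gyf1 (adjusted p = 0.895) and −0.02 in gyf2 (adjusted p = 0.934).

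SAG101, the EDS1 partner that acts with the NRG1 helpers, followed the same genotypes. It lies at chr5:4828499-4830982 on the plus strand. It had 7.18, 7.99 and 8.10 FPKM in gyf1 and 8.59, 7.18 and 8.45 in gyf2 seedlings, then 11.4, 11.6 and 9.22 in gyf1 gyf2-1 beside 11.9, 11.8 and 14.0 in gyf1 gyf2-2 seedlings, and 7.90, 6.89 and 7.46 in WT. All 6 double mutant libraries lay above all 9 others. The log2 fold change was 0.53 in gyf1 gyf2-1 (SE 0.11, adjusted p = 0.000417), while gyf1 gyf2-2 had 0.76 (SE 0.10, adjusted p = 1.89e-06), against 0.06 in gyf1 (adjusted p = 0.894) and 0.12 in gyf2 (adjusted p = 0.666).

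The 3 detected ADR1-class helpers rose in gyf2 as well as in both double mutants. Their proteins are membrane-associated NLRs that form calcium-permeable channels downstream of EDS1 and PAD4. Summed over ADR1, ADR1-L1 and ADR1-L2, the level was 46.5 ± 2.36 FPKM in gyf1 and 58.3 ± 2.59 in gyf2 seedlings, then 79.2 ± 3.22 in gyf1 gyf2-1 and 80.9 ± 4.79 in gyf1 gyf2-2 seedlings, and 39.4 ± 1.71 in WT. ADR1-L2 (chr5:1360589-1363907, plus strand) had 17.5, 18.8 and 16.8 FPKM in gyf1 and 23.9, 22.8 and 24.8 in gyf2 seedlings, then 29.2, 31.4 and 32.5 in gyf1 gyf2-1 beside 31.2, 29.1 and 32.9 in gyf1 gyf2-2 seedlings, and 13.5, 14.7 and 15.3 in WT. The libraries of both double mutants, of gyf2, of gyf1 and of WT formed 4 ranges without overlap, given here from the highest to the lowest. Its log2 fold change was 0.71 in gyf2 (SE 0.07, adjusted p = 4.56e-08), 1.09 in gyf1 gyf2-1 (SE 0.07, adjusted p = 2.55e-12) and in gyf1 gyf2-2 it rose 2.14-fold (SE 0.07 on the log2 scale, adjusted p = 1.67e-12). In gyf1 its change of 0.28 (SE 0.07, 95% interval 0.13 to 0.43) missed the threshold at an adjusted p of 0.0853, and DESeq2 gave 0.29 (adjusted p = 0.0278).

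ADR1-L1, the gene of the set with the highest FPKM in WT, lies at chr4:16050456-16056526 on the minus strand. It had 19.1, 20.7 and 17.7 FPKM in gyf1 and 21.6, 23.1 and 26.0 in gyf2 seedlings, then 32.9, 36.2 and 34.5 in gyf1 gyf2-1 beside 36.9, 32.1 and 36.8 in gyf1 gyf2-2 seedlings, and 16.6, 16.7 and 18.4 in WT. The gyf2 libraries lay between WT and the double mutants without overlap, and gyf1 overlapped WT. Its log2 fold change was 0.15 in gyf1 (SE 0.08, adjusted p = 0.519), 0.44 in gyf2 (SE 0.08, adjusted p = 0.000362) as well as 1.00 in gyf1 gyf2-1 (SE 0.08, adjusted p = 5.63e-11), while gyf1 gyf2-2 had 1.03 (SE 0.08, adjusted p = 1.99e-11). In its annotated transcripts 13.2% of the 150-base windows lie antisense to other annotated genes, whose group means were at most 0.292 CPM, against 72.3 to 147.7 CPM for ADR1-L1.

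ADR1, for which the class is named, lies at chr1:12168768-12172119 on the plus strand. It had 10.0, 9.30 and 9.60 FPKM in gyf1 and 11.6, 10.6 and 10.4 in gyf2 seedlings, then 13.5, 14.3 and 13.2 in gyf1 gyf2-1 beside 14.1, 14.4 and 15.1 in gyf1 gyf2-2 seedlings, and 7.31, 8.93 and 6.80 in WT. Every mutant library lay above every WT library. The log2 fold change was 0.50 in gyf2 (SE 0.09, adjusted p = 0.000471) as well as 0.83 in gyf1 gyf2-1 (SE 0.09, adjusted p = 3.08e-08), while gyf1 gyf2-2 had 0.92 (SE 0.09, adjusted p = 2.48e-09). In gyf1 it was 0.32 (SE 0.09, 95% interval 0.14 to 0.50, adjusted p = 0.121). That value depended on WT replicate 2, which held the highest WT level, since without it the change in gyf1 was 0.45 (adjusted p = 0.0115). ADR1 and ADR1-L2 were the 2 genes of the set whose gyf1 and WT libraries did not overlap, where 14.8% of all genes tested did not overlap.

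ADR1-L3 (chr5:19193157-19195559, plus strand) had 0 counts in all 15 libraries. A count of 0 allows up to 3 counts per library, which is 0.122 to 0.181 CPM, or 0.0101 CPM over all libraries together (counting error only). Its coding region has 1872 bases, against 2436 for ADR1-L2, and is 87.1% identical to that of ADR1-L2 over aligned bases. No 150-base window of its transcript occurs in ADR1-L2 or in another of these genes.

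The NRG1 helpers are a tandem pair, NRG1.1 at chr5:26714723-26717958 and NRG1.2 at chr5:26718130-26721377, both on the minus strand with 171 bases between them. Of 2415 aligned coding bases, 2031 (84.1%) were identical. The 100 coding bases in which the copies differ least are shown because these neighbours behaved differently (RefSeq, TAIR10.1, 5′ to 3′ on the minus strand, NRG1.1 at chr5:26715558-26715657 and NRG1.2 at chr5:26718965-26719064). Capitals mark the 2 differing bases.
NRG1.1: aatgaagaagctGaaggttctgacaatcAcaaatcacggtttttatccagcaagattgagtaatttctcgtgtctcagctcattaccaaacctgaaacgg
NRG1.2: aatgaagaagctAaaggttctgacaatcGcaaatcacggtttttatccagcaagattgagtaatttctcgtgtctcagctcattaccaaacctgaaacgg
As for EDS1, no 150-base window of one transcript was found in the other.

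NRG1.2 rose in both double mutants and NRG1.1 was called in no comparison. NRG1.2 had 5.10, 4.79 and 5.16 FPKM in gyf1 and 5.17, 4.56 and 4.84 in gyf2 seedlings, then 6.76, 7.77 and 7.46 in gyf1 gyf2-1 beside 7.15, 7.02 and 7.84 in gyf1 gyf2-2 seedlings, and 5.15, 4.99 and 4.61 in WT. Its 6 double mutant libraries were above the 9 others, and the singles overlapped WT. The log2 fold change of NRG1.2 was 0.57 in gyf1 gyf2-1 (SE 0.10, adjusted p = 5.13e-05), while gyf1 gyf2-2 had 0.57 (SE 0.10, adjusted p = 3.23e-05). It was 0.02 in gyf1 (adjusted p = 0.954) and −0.02 in gyf2 (adjusted p = 0.948).

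NRG1.1 had 7.97, 7.81 and 6.95 FPKM in gyf1 and 8.90, 7.61 and 8.20 in gyf2 seedlings, then 7.77, 8.31 and 8.86 in gyf1 gyf2-1 beside 8.25, 9.05 and 7.43 in gyf1 gyf2-2 seedlings, and 7.86, 7.19 and 8.15 in WT. Its libraries overlapped between all genotypes. The changes were 0.10 in gyf1 gyf2-1 (95% interval −0.09 to 0.29, adjusted p = 0.473), while gyf1 gyf2-2 had 0.09 (95% interval −0.10 to 0.28, adjusted p = 0.509). NRG1.1 made up 60.1% of the FPKM of the pair in gyf1 and 62.9% in gyf2 seedlings, then 53.1% in gyf1 gyf2-1 and 52.9% in gyf1 gyf2-2 seedlings, and 61.1% in WT, with an SD of 0.352 to 3.87 percentage points. The highest double mutant library stood at 56.3% and the lowest WT library at 59.0%. This contrast between the copies was chosen after the values were seen and is given as a description. With the counts of both copies summed, the pair rose by 0.30 on the log2 scale in gyf1 gyf2-1 (SE 0.07, adjusted p = 0.00339), while gyf1 gyf2-2 had 0.30 (SE 0.07, adjusted p = 0.00301).

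**Figure D2:**
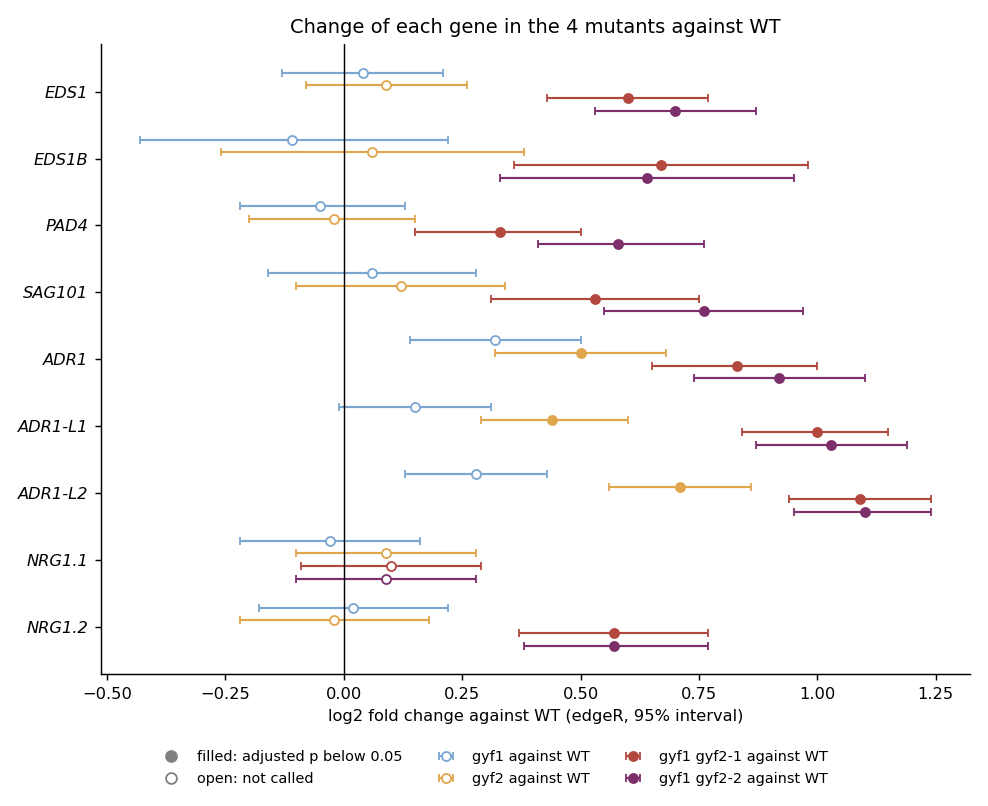
Log2 fold change against WT (horizontal axis) of the 9 tested genes in the 4 mutants, from edgeR's quasi-likelihood fit. Bars are 95% intervals, and filled points have an adjusted p below 0.05. The intervals of the double mutants lie to the right of 0 for every gene but NRG1.1, whose intervals cross 0, and in gyf2 the filled points are ADR1, ADR1-L1 and ADR1-L2.

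The 2 double mutant lines were compared with each other, since they share gyf1 and differ in the gyf2 label. None of the 9 genes was called between gyf1 gyf2-2 and gyf1 gyf2-1 by edgeR, where 0.232% of all genes were called. DESeq2 also called 0. In the edgeR fit 2 had an unadjusted p below 0.05, and the share of all genes below it was not taken. The 2 were PAD4, with a difference of 0.26 (SE 0.08, 95% interval 0.09 to 0.43, adjusted p = 0.403), and SAG101, with 0.23 (SE 0.10, 95% interval 0.02 to 0.44, adjusted p = 0.619). Both were higher in every gyf1 gyf2-2 library than in every gyf1 gyf2-1 library, which held for 12.5% of genes in one direction or the other. The other 7 differences ran from −0.03 to 0.10.

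The mean of both double mutants was compared with each single mutant. EDS1, EDS1B, PAD4, SAG101, ADR1, ADR1-L1, ADR1-L2 and NRG1.2 rose against gyf1 (8 of 9, with 25.5% of all genes called and 14.3% called as higher) and against gyf2 (8 of 9, with 21.0% called and 12.2% called as higher). Against gyf1 the rises were largest for ADR1-L1 at 0.86 (SE 0.07, adjusted p = 1.01e-10) and ADR1-L2 at 0.81 (SE 0.06, adjusted p = 9.14e-11). Against gyf2 the largest were EDS1B at 0.60 (SE 0.13, adjusted p = 0.00143) and NRG1.2 at 0.59 (SE 0.08, adjusted p = 5.64e-06). ADR1-L1 rose by 0.57 (SE 0.07, adjusted p = 3.25e-07) and ADR1-L2 by 0.38 (SE 0.06, adjusted p = 3.44e-05) against gyf2. EDS1 rose by 0.61 (SE 0.07, adjusted p = 2.07e-07) against gyf1 and by 0.56 (SE 0.07, adjusted p = 1.22e-06) against gyf2. NRG1.1 had 0.13 (adjusted p = 0.269) against gyf1 and 0.01 (adjusted p = 0.966) against gyf2.

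Whether the double mutants exceeded the sum of the single mutants was tested as non-additivity, the mean log2 change of both double mutants minus the sum of the gyf1 and gyf2 changes. The EDS1 family genes, ADR1-L1 and NRG1.2 exceeded the sum (6 of 9, with 7.20% of all genes called and 4.85% called as higher), and ADR1, ADR1-L2 and NRG1.1 were not called. For EDS1 the double mutants had 0.65 and the singles summed to 0.13, a difference of 0.52 (95% interval 0.30 to 0.75, adjusted p = 0.00273). For PAD4 the values were 0.46 and −0.07, a difference of 0.52 (95% interval 0.29 to 0.75, adjusted p = 0.00344). NRG1.2 had 0.57 in the double mutants and 0.00 as the sum (difference 0.57, 95% interval 0.31 to 0.83, adjusted p = 0.00553). For these 3 genes the summed changes of the single mutants lay near 0. ADR1-L1 had 1.01 in the double mutants and 0.59 as the sum (difference 0.42, 95% interval 0.21 to 0.63, adjusted p = 0.00966).

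For ADR1-L2 the double mutants had 1.09 and the singles summed to 1.00, a difference of 0.10 (95% interval −0.10 to 0.29, adjusted p = 0.613). For ADR1 the values were 0.87 and 0.82, a difference of 0.05 (95% interval −0.19 to 0.29, adjusted p = 0.863). For these helpers the interval held 0, so an excess over the sum was not detectable, and an excess of up to 0.29 could not be told from none. For EDS1B the difference was 0.71 (95% interval 0.28 to 1.13, adjusted p = 0.0337), and for SAG101 it was 0.47 (95% interval 0.18 to 0.75, adjusted p = 0.0395). These calls were narrow. EDS1B lost its call without any 1 of 9 libraries (WT replicates 2 and 3, gyf1 replicates 1 and 2, gyf2 replicates 1 and 2, gyf1 gyf2-1 replicates 1 and 2 and gyf1 gyf2-2 replicate 1), with differences of 0.60 to 0.70 and adjusted p from 0.0502 to 0.105. SAG101 lost its call without any 1 of 10 libraries (WT replicates 1 and 3, gyf1 replicates 1, 2 and 3, gyf2 replicates 2 and 3, gyf1 gyf2-1 replicates 1 and 2 and gyf1 gyf2-2 replicate 3), with differences of 0.39 to 0.49 and adjusted p from 0.0524 to 0.133. With the counts of EDS1 and EDS1B summed, non-additivity was 0.55 (SE 0.10, adjusted p = 0.000964), and for both NRG1 copies summed it was 0.26 (SE 0.10, adjusted p = 0.111).

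**Figure D3:**
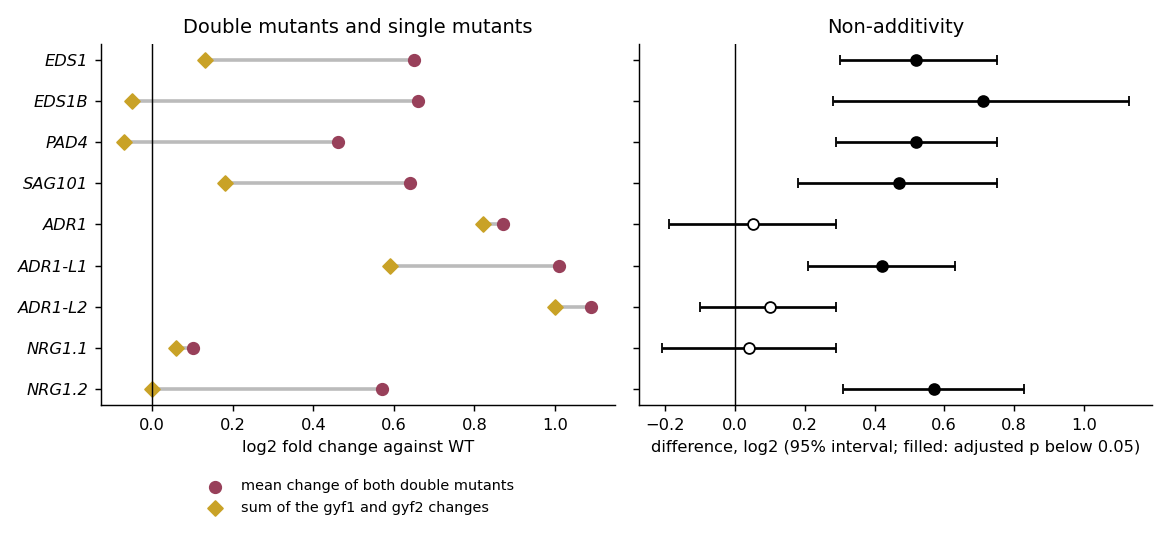
Left, log2 change against WT (horizontal axis) as the mean of both double mutants and as the sum of the single mutants, for the 9 tested genes. Right, the difference between these with its 95% interval, filled where the adjusted p was below 0.05. For ADR1 and ADR1-L2 the markers nearly coincide, at 0.87 and 0.82 and at 1.09 and 1.00, while for NRG1.2 they lie at 0.57 and 0.00.

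Because EDS1 acts with PAD4 or SAG101 and with matching helpers, 6 ratios of counts were taken within each library, where no scaling between libraries enters. The 6 double mutant libraries were compared with the 3 WT libraries by an exact two-sided permutation test (84 splits, smallest possible p 0.0238), adjusted over the 6 ratios. The log2 ratio of the NRG1 pair to the ADR1 class was −2.61, −2.58 and −2.52 in gyf1 gyf2-1, −2.65, −2.45 and −2.70 in gyf1 gyf2-2, and −1.76, −1.94 and −1.90 in WT. The groups did not overlap, and the difference was −0.72 (−2.59 ± 0.09, n = 6, in the double mutants and −1.87 ± 0.10, n = 3, in WT). Its exact p was 0.0238, the smallest possible, and 0.0952 after adjustment. In the single mutants this ratio was −2.05, −2.17 and −2.08 in gyf1 and −2.21, −2.43 and −2.45 in gyf2, all below WT. The gyf1 libraries lay above the double mutants, while the lowest gyf2 library and the highest double mutant library both stood at −2.45.

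Within the EDS1 family, PAD4 to both EDS1 copies stood at −0.67 ± 0.13 in the double mutants and −0.47 ± 0.07 in WT on the log2 scale (difference −0.19, exact p = 0.0476, adjusted p = 0.0952). SAG101 to both EDS1 copies stood at −1.45 ± 0.11 in the double mutants and −1.44 ± 0.10 in WT (difference −0.01, exact p = 0.881). SAG101 to PAD4 stood at −0.78 ± 0.12 in the double mutants and −0.96 ± 0.14 in WT (difference 0.18, exact p = 0.0476, adjusted p = 0.0952). These libraries overlapped between the groups. ADR1-L2 differed from WT by 0.08 relative to ADR1-L1 (exact p = 0.0952) and by 0.21 relative to ADR1 (exact p = 0.143). No ratio passed 0.05 after adjustment. A single ratio at the smallest possible exact p of 0.0238 could not pass it after adjustment over 6 ratios, however large its difference. This outcome therefore does not speak against a difference in any 1 ratio. With either line alone, 3 libraries against 3 cannot give a p below 0.10.

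**Figure D4:**
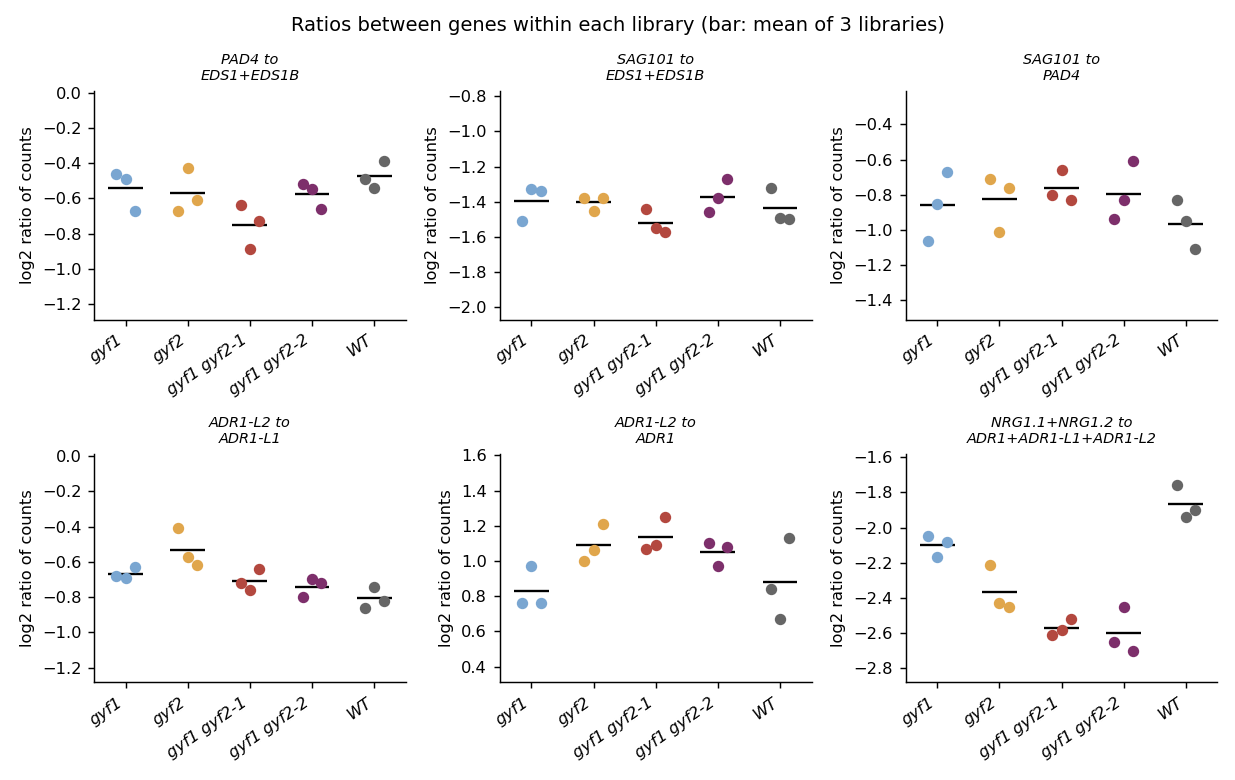
Log2 ratios of counts between genes within each library (vertical axes, all spanning 1.3 log2 units) in 5 genotypes. Points are libraries and bars are means of 3. The ratio of the NRG1 pair to the ADR1 class lies at −2.70 to −2.45 in the double mutants and −1.94 to −1.76 in WT, and the other ratios overlap.

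The bases before the annotated gene starts were searched on both strands for 4 short motifs of immune promoters: the W-box letters TTGACC or TTGACT (bound by WRKY factors), TGACG (bound by TGA factors), CGCG (the core bound by CAMTA factors) and GAAATTT. Windows of 250 bases were used for the 10 genes and for 27443 protein-coding genes. The W-box letters were in 2 of the 10 windows (EDS1 and NRG1.2), against 28.4% of all windows. TGACG was in 2 (ADR1-L3 and NRG1.2) against 18.6%, CGCG in 1 (ADR1-L2) against 2783 of the 27443 windows, and GAAATTT in 1 (ADR1-L1) against 12.5%. The windows of EDS1, ADR1-L2 and NRG1.2 are shown as 1 gene from each class that rose and holds a motif, with ADR1-L1, which also does, left out (RefSeq, TAIR10.1, 5′ to 3′ along the gene, EDS1 at chr3:17758148-17758397 minus, ADR1-L2 at chr5:1360339-1360588 plus and NRG1.2 at chr5:26721378-26721627 minus). Capitals mark the motif letters on either strand.
EDS1 upstream: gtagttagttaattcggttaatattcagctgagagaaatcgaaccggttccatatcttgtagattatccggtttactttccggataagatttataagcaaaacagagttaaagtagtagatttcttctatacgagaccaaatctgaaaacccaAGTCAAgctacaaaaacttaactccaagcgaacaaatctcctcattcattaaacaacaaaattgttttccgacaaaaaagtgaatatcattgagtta
ADR1-L2 upstream: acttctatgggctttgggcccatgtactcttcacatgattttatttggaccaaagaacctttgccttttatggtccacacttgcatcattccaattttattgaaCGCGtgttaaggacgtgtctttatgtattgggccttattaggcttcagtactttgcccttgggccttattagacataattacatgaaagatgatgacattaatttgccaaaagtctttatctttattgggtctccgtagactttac
NRG1.2 upstream: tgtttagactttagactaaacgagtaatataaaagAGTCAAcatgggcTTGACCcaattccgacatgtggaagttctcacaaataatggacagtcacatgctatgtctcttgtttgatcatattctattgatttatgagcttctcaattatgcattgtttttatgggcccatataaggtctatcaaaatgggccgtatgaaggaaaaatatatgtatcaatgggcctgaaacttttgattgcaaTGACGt
The windows of EDS1B and NRG1.1 reach into the neighbouring copy's transcribed region. Those of SAG101 and ADR1-L1 also overlap another annotated gene (AT5G14920 and AT4G08785). A match describes the letters only.

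Upstream of EDS1, receptors and proteins with a TIR domain were followed as a list of 20 genes, of which 18 were tested. None was called lower. Called higher were 0 in gyf1 and 1 in gyf2 seedlings, with 9 in gyf1 gyf2-1 and 10 in gyf1 gyf2-2, where 0.405%, 1.99%, 14.2% and 15.1% of all genes were called higher. The list's median log2 change was 0.07, 0.06, 0.21 and 0.25 in the same order, against −0.0038 to −0.014 over all genes. The largest change named was in AT1G66090, which rose 2.14-fold in gyf2 (SE 0.20 on the log2 scale, adjusted p = 0.00215). It had a log2 change of 1.42 in gyf1 gyf2-1 (SE 0.20, adjusted p = 2.61e-05), while gyf1 gyf2-2 had 1.72 (SE 0.19, adjusted p = 1.56e-06). RPP4, a receptor gene for downy mildew resistance, was higher by 0.72 in gyf1 gyf2-1 (SE 0.10, adjusted p = 9.76e-06), while gyf1 gyf2-2 had 0.70 (SE 0.10, adjusted p = 1e-05). RPP5, of the same gene cluster, was higher by 0.58 in gyf1 gyf2-1 (SE 0.09, adjusted p = 5.72e-05), while gyf1 gyf2-2 had 0.54 (SE 0.09, adjusted p = 8.81e-05). RPP4 and RPP5 belong to a cluster of similar genes, and how their reads were divided was not tested.

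Of 7 chaperones and partners of NLR receptors, 0 were called in either single mutant, 1 in gyf1 gyf2-1, a share close to the 14.2% of all genes called higher there, and 4 in gyf1 gyf2-2, where 15.1% of all genes were called higher. All of these calls were higher. The list's median was −0.01, 0.02, 0.16 and 0.23 in that order. SGT1A, a co-chaperone of receptor assembly, was higher by 0.34 in gyf1 gyf2-1 (SE 0.08, adjusted p = 0.0011), while gyf1 gyf2-2 had 0.57 (SE 0.07, adjusted p = 1.04e-06). RIN4, a membrane protein guarded by receptors of another NLR class, had 0.18 in gyf1 gyf2-1 (adjusted p = 0.132), while gyf1 gyf2-2 had 0.32 (adjusted p = 0.00503). SGT1B had 0.16 in gyf1 gyf2-1 (adjusted p = 0.0629), while gyf1 gyf2-2 had 0.23 (adjusted p = 0.00617). Leaving out 1 WT library moved these last calls. Without WT replicate 1, RIN4 (0.27, adjusted p = 0.0318) and SGT1B (0.20, adjusted p = 0.0418) were called in gyf1 gyf2-1. Without WT replicate 2 neither was called in gyf1 gyf2-2 (RIN4 0.24, adjusted p = 0.0543, and SGT1B 0.18, adjusted p = 0.0569).

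Of 12 genes listed as negative regulators of NLR or EDS1 signalling 11 were tested, and 0 were called in either single mutant. In gyf1 gyf2-1 7 were called, all higher, and in gyf1 gyf2-2 8, also all higher, where 14.2% and 15.1% of all genes were called higher. CPR1, DND1 and SRFR1 were called in neither double mutant. The list's median was 0.06, 0.13, 0.37 and 0.30, against −0.0038 to −0.014 over all genes. NUDT7, a Nudix hydrolase that restrains EDS1-dependent responses, was higher by 0.71 in gyf1 gyf2-1 (SE 0.08, adjusted p = 2.09e-07), while gyf1 gyf2-2 had 0.95 (SE 0.08, adjusted p = 4.82e-10). Its relative NUDT6 was higher by 1.08 in gyf1 gyf2-1 (SE 0.20, adjusted p = 0.000547), while gyf1 gyf2-2 had 1.17 (SE 0.20, adjusted p = 0.000181). Whether NUDT6 itself acts as a negative regulator was not tested. CAMTA3, a calmodulin-binding repressor of immune genes, was higher by 0.60 in gyf1 gyf2-1 (SE 0.08, adjusted p = 1.59e-06), while gyf1 gyf2-2 had 0.75 (SE 0.08, adjusted p = 2.07e-08).

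Downstream of EDS1, the salicylic acid and N-hydroxypipecolic acid branch was followed as 13 genes, all tested. None was called lower, and called higher were 0 in gyf1, 1 in gyf2, and 11 in each double mutant, against 0.405%, 1.99%, 14.2% and 15.1% of all genes. EPS1 and PBS3 were the 2 genes not called in the double mutants. The medians were −0.04 in gyf1 and 0.03 in gyf2 seedlings, with 0.55 in gyf1 gyf2-1 and 0.69 in gyf1 gyf2-2. SARD1, a transcription factor that activates salicylic acid synthesis genes, was higher by 1.54 in gyf1 gyf2-1 (SE 0.13, adjusted p = 1.69e-09), while gyf1 gyf2-2 had 1.90 (SE 0.13, adjusted p = 1.97e-11). Its relative CBP60g rose by 0.51 in gyf2 (SE 0.11, adjusted p = 0.0089) as well as 0.73 in gyf1 gyf2-1 (SE 0.11, adjusted p = 3.57e-05), while gyf1 gyf2-2 had 0.77 (SE 0.11, adjusted p = 1.25e-05). The gyf2 call of CBP60g was lost without WT replicate 1 (0.44, adjusted p = 0.0701) or without gyf2 replicate 3 (0.42, adjusted p = 0.0523). AT5G52810 was higher by 0.45 in gyf1 gyf2-1 (SE 0.08, adjusted p = 7.07e-05), while gyf1 gyf2-2 had 0.58 (SE 0.08, adjusted p = 1.31e-06).

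To place the genes among others, each was centred on its mean log2 CPM over the 15 libraries, and the root mean square difference to each of 13712 genes was taken as the measure of likeness, as a description. The gene most like EDS1 was SAG101, its dimer partner, at 0.077, and EDS1 was likewise first for SAG101. NRG1.2 was place 18 for EDS1, at 0.103, PAD4 place 120, at 0.13, and EDS1B place 1048, at 0.20. EDS1B is the lowest of these genes in counts, which share depth and scaling with the others. The next nearest to EDS1 were GDH1 at 0.083 and RD19 at 0.087, and GDH1 also stood first for NRG1.2 at 0.083.

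For PAD4 the nearest was SGT1A at 0.079. For ADR1-L2 it was DOGT1 at 0.069, followed by CPK32 at 0.096 and AT3G52060 at 0.099, with ADR1-L1 in place 4 at 0.105. ADR1-L1 was nearest to SCL13 at 0.090 and HIR2 at 0.098, with ADR1-L2 in place 3. For ADR1 the nearest were SAG20 at 0.102 and ATSIK at 0.104, and ADR1-L2 and ADR1-L1 followed only in places 118 and 259. EDS1B was nearest to VSR7 at 0.121. The distance of a gene that does not move at all would equal the gene's own root mean square deviation, which ran from 0.263 for PAD4 to 0.441 for ADR1-L2.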

How the data were processed

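Strand-specific mRNA libraries of 15 whole-seedling samples were used. The authors deposited counts per gene and FPKM per gene, made with HISAT2 2.0.4 and HTSeq 0.6.1p1 on TAIR10, going by the submitters' processing notes. Neither the step from counts to FPKM nor the strand setting is given in the sources used here. The library factor that the deposited FPKM imply was 0.974 to 1.03 times the count total, and the FPKM were used for levels and for the limma alternative. Depth was 16567801 to 24681140 counts per library, and floors cover counting error only.

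In R 4.3.3, filterByExpr of edgeR 4.0.16 kept 20721 genes and removed 12112, TMM scaled the libraries, and 1 robust quasi-likelihood model over the 15 libraries held a mean for each genotype (biological coefficient of variation 7.94%). F tests were adjusted by Benjamini-Hochberg over all genes of a comparison and called below 0.05, the threshold. SE is the change divided by the square root of F. Models were tested on simulated data. Alternatives were DESeq2 1.42.0 size factors and test, library totals, no filter, limma 3.58.1 on log2 of FPKM plus 0.1 or 1, copies summed, only the groups compared, a replicate block and leaving out each library.

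The genes and lists were chosen with earlier results of these data known. Named were all 10 genes and the 3 genes of each pathway list with the lowest larger adjusted p over the double mutants. List genes called in a single mutant and genes among the 3 nearest in pattern were also named.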

Additional observations from a re-analysis of the deposited data

Results flagged for a closer look

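Non-additivity, the difference between the mean change of the double mutants and the sum of the gyf1 and gyf2 changes, passed the test in 6 genes. The differences were 0.52 for EDS1, 0.71 for EDS1B, 0.52 for PAD4, 0.47 for SAG101, 0.42 for ADR1-L1 and 0.57 for NRG1.2 on the log2 scale. EDS1, PAD4, ADR1-L1 and NRG1.2 were called in each of the 15 fits that left out 1 library, while EDS1B was called in 6 and SAG101 in 5 of them. The gyf2 single mutant may or may not carry the same allele as either double mutant, and this could not be settled from the labels.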

How the results depend on the processing

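Of 567 log2 changes refitted without 1 library, 547 kept their call, 19 lost it, 1 gained it and 0 reversed, and 21 uncalled values of at most 0.11 changed sign. Of 599 under the other alternatives, 585 kept their call, 7 lost it, 7 gained it and 0 reversed, and 7 uncalled values of at most 0.08 changed sign. The counts of called genes in gyf2 (3), gyf1 gyf2-1 (8) and gyf1 gyf2-2 (8) were the same under every alternative run. In gyf1 the count was 0, against 2 by DESeq2 (ADR1 at 0.33, adjusted p = 0.0487, and ADR1-L2) and 1 with the replicate block (ADR1-L2 at 0.29, adjusted p = 0.0377), and it ran from 0 to 1 when 1 library was left out. Deviations of same-numbered libraries correlated at −0.069 to 0.19 (median 0.03), against −0.187 to 0.11 (median −0.019) for other numbers. Same-numbered libraries were thus slightly more alike. The main model held no replicate term, and whether the numbers mark shared batches was not tested. Over all genes the block called 192 in gyf1 and 714 in gyf2, against 108 and 519 without it, and it changed no other count of these 9 genes. DESeq2 called 175 of all genes in gyf1 and 614 in gyf2. Non-additivity was called in 6 genes, in 4 by library totals or by limma on FPKM at either pseudocount, and in 4 to 6 without 1 library. The genes lost were EDS1B (0.65, adjusted p = 0.0534 by totals) and SAG101 (0.41, adjusted p = 0.0706 by totals). NRG1.2 lost its non-additivity when its copy was summed with it. Pathway genes called in gyf2 were 2, of lists with 18, 7, 11 and 13 tested genes, where 2.50% of all genes were called. The number was 4 by DESeq2, which called 614 of all 20721 genes, and 1 to 3 without 1 library. Counts this small are a description. No ratio was called under any alternative, but a design this small could hardly call one, which says nothing about stability. SAG101 to the EDS1 copies, near 0, changed sign with gyf1 gyf2-2 alone (0.06). The cause of these changes was not tested.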
